A study of Mus musculus with 6 samples.

Results

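Genes that place, remove or read methyl groups on lysine 4 of histone H3 (H3K4) were followed in whole testes of C57BL/6J mice given atrazine (ATZ) and in untreated controls. The set holds 38 genes fixed by name. A gene was measured where a probe set of the array had it as its only symbol, and the probe set with the highest mean over the 6 arrays was used. This gave 36 measured genes of 22180 on the array. Ash1l has no probe set named for it in the annotation used here, and the 1 probe set named for Kdm2b carries a further symbol, so neither is described. ATZ was given for 3 weeks in drinking water at 100 mg/l, a daily dose of about 25 mg/kg, followed by 2 weeks without it. Control mice had no ATZ, and testes of both groups were taken at 10 weeks of age. RNA of 3 ATZ-treated and 3 control samples was hybridised to Affymetrix mouse gene 2.0 st arrays, 1 array per sample. Nothing in the labels says whether a sample is 1 animal or a pool, so a p-value here covers the spread among these arrays, which may be technical. Values are log2 intensities from the authors' robust multi-array average (RMA). The median over all probe sets was 6.6 to 6.69 on the 6 arrays, and marker lists of round and elongating spermatids had means of 11.79 to 12.92, so defining transcripts of testis were present.

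Methylation of H3K4 marks regulatory DNA that is open for transcription. Large COMPASS complexes add it: a catalytic subunit with a SET domain (Kmt2a, Kmt2b, Kmt2c, Kmt2d, Setd1a or Setd1b) sits on a shared core of Wdr5, Rbbp5, Ash2l and Dpy30, and further subunits direct each complex to its sites. Demethylases of the Kdm1 and Kdm5 families remove the mark, and proteins with PHD fingers, such as the Ing family, Taf3 and Bptf, bind it. In male meiosis Prdm9 trimethylates H3K4 at the sites where recombination starts, which ties this chemistry to the formation of crossovers. The study profiled H3K4me3 in ATZ-treated testes, and the comparison here asks whether transcripts of the enzymes and readers of the mark differed between the same kinds of samples.

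Promoter sequences were at hand in RefSeq (GRCm38.p6) for 30 of the 38 genes, in 44 windows of 300 bases that run from 250 bases before a transcription start to 50 after it. These windows were rich in CpG, the dinucleotide that the Cxxc1 subunit binds when it is unmethylated. The median was 26 CpG per window, from 1 to 56, against 7 over all 32851 windows of the table. A GC box of the factor Sp1 (GGGCGG, both strands) was in 32 of the 44 windows, or 72.7%, against 35.7% of all windows. The cAMP response element (TGACGTCA, the same on both strands), which CREM binds in spermatids, was in 5 windows, or 11.4%, against 1.79% of all. These 5 windows belong to Ing3, Ing4, Wdr82 and Phf8. The ETS core CCGGAA (both strands) was in 15.9% against 14.9%, and CAAGGTCA (both strands), an element bound by NR5A receptors, which the study discusses, was in 0 of 44 against 1.56%. None of the 4 motifs contains another, the windows of a gene can overlap, and a match of letters is a description and not a site. Below are the 250 bases before the start for the 3 genes in the table whose ATZ and control values did not overlap, Kmt2a, Kmt2c and Ing4, and for Prdm9 as the meiotic enzyme. Each reads 5′ to 3′ on the strand of its gene, and capitals mark matches to these motifs.
Kmt2a, chr9:44881290-44881539, minus strand: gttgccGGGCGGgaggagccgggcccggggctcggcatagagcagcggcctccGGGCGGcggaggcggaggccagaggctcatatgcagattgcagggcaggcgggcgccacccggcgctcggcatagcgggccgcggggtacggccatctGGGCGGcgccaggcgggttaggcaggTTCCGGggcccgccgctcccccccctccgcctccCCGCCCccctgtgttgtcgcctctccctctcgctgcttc
Kmt2c, chr5:25498784-25499033, minus strand: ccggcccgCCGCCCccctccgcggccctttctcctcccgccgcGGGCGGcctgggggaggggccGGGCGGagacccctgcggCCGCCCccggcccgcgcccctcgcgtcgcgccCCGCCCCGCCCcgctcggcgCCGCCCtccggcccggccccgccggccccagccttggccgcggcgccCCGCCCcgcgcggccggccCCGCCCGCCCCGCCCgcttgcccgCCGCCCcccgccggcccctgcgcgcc
Ing4, chr6:125039598-125039847, plus strand: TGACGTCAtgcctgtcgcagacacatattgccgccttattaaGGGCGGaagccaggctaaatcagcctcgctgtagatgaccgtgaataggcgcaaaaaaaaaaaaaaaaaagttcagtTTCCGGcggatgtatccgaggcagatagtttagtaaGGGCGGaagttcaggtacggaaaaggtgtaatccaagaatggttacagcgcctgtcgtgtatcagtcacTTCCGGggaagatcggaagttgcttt
Prdm9, chr17:15564355-15564604, minus strand: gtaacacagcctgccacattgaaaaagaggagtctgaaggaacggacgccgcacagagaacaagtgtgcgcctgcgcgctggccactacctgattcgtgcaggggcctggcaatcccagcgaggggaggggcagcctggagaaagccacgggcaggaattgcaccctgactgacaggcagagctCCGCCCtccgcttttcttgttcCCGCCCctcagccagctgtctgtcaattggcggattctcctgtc
The Kmt2c stretch held 48 CpG and 12 GC boxes, counted with overlaps, and the Kmt2a stretch 29 CpG and 4 GC boxes. The Prdm9 stretch held 13 CpG and 2 GC boxes, while the window of another start of Prdm9 held 9 CpG and none of these motifs. The Ing4 stretch held 16 CpG, 2 GC boxes, 2 ETS cores and 1 cAMP response element.

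None of the 36 genes changed at an adjusted p under 0.05. Groups were compared by the moderated test of limma, two-sided, with Benjamini-Hochberg adjustment over 41345 probe sets, and log2 changes are ATZ minus control. Over all probe sets 0 passed, or 0%, and the adjusted p of every measured gene of the set was 0.998. At an unadjusted p under 0.05 there were 0 of 36 genes, against 530 of all 22180 genes, or 2.39%. Among 11527 genes in the same range of means as the set it was 94, or 0.815%. The changes were small. They ran from -0.25 for Hcfc1 to 0.18 for Smyd1, with a median of -0.05, against a median of -0.0033 over all genes. The 95% confidence interval of each of the 36 changes lay within a 1.5-fold change in either direction (0.58 on the log2 scale), the fold threshold that the study applied to its arrays. The lowest bound was -0.55, for Hcfc1, and the highest 0.46, for Smyd1. The same held for 87.2% of all genes, and for 94.4% of the 11527 genes whose means lie between 6.97 and 11.42, the range of the set. These intervals were made for 1 gene at a time. Intervals wide enough for all 36 at once lay within 1.5-fold for 14 genes and reached from -0.92 to 0.79. In whole testis, less RNA per cell and fewer cells of a type cannot be told apart.

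**Figure D1:**
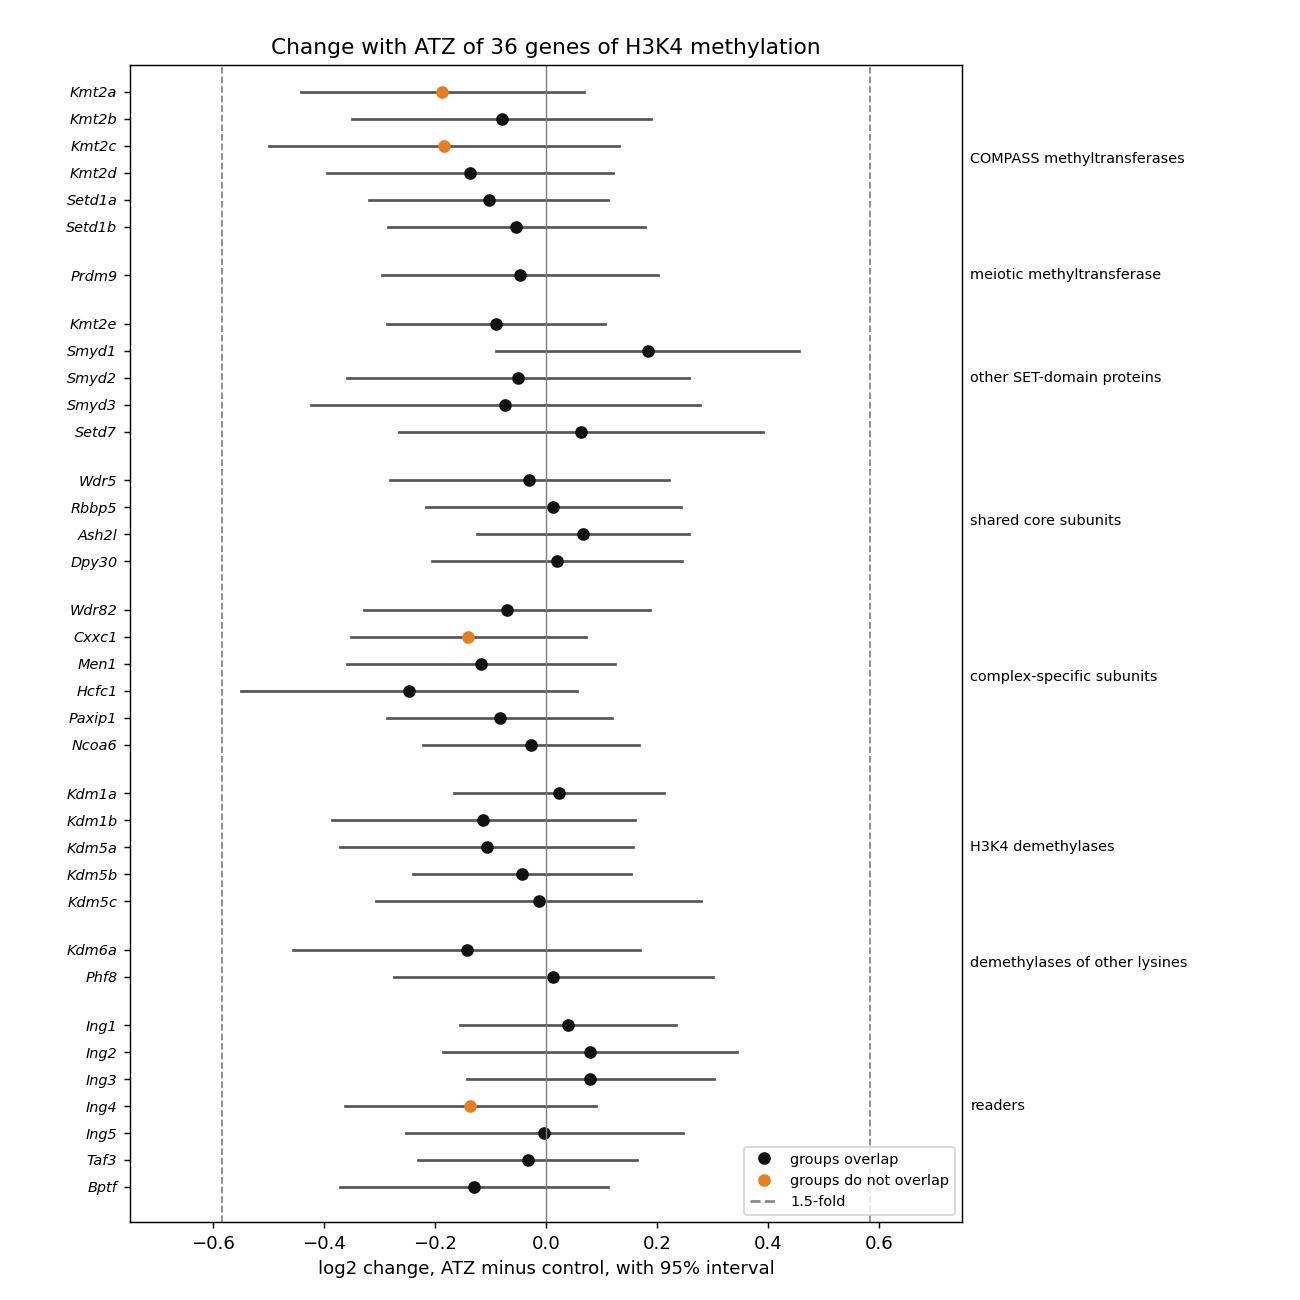
Log2 change (ATZ minus control, n = 3 arrays per group) of the 36 measured genes, grouped by role, with the 95% confidence interval from limma as a line. Dashed lines mark a 1.5-fold change each way. All intervals cross 0 and stay between the dashed lines, and orange points are the 4 genes whose groups do not overlap.

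Of the 36 changes, 26 were below 0 and 10 above. This is 72.2% below 0, against 50.8% of all genes and 62.2% of the genes in the same range of means. Centring the arrays on their medians lowered all changes alike, with the median of all genes moving from -0.0033 to -0.0333. Then 30 changes of the set were below 0 and 6 above, or 83.3% below 0, against 62.8% of all genes. Without control replicate 2, 20 were below 0 and 16 above, or 55.6% below 0, against 48.0% of all genes. For both of these fits the share among genes in the same range of means is not given. Single arrays weighed on single genes as well: leaving out 1 array turned the sign or moved the size of the change by over 1.5 times in 26 genes for control replicate 2, and in 13 to 19 genes for each of the other arrays. In 4 genes, Kmt2a, Kmt2c, Cxxc1 and Ing4, all ATZ values lay below all control values. This is 11.1% of the set, against 3.08% of all genes. None of the 36 had all ATZ values above all control values, as 3.83% of all genes did. After quantile normalization again, Kmt2a was the only one of the 36 with groups apart.

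The 6 catalytic subunits of COMPASS all had log2 changes below 0, with a median of -0.12, and none passed the test. Kmt2a, which keeps Hox genes active, measured 8.09, 8.15 and 8.08 in ATZ-treated and 8.19, 8.48 and 8.21 in control samples. Its groups were 0.04 apart, and its log2 change was -0.19 (standard error 0.11). Kmt2c, which monomethylates H3K4 at enhancers, measured 8.69, 8.68 and 8.68 in ATZ-treated and 8.75, 9.14 and 8.71 in control samples. The ATZ arrays were within 0.01 of each other and control replicate 2 stood 0.39 above the next array, and the change of -0.18 (standard error 0.13) was -0.05 without that array. Kmt2d, the enhancer enzyme closest to Kmt2c, measured 8.79, 8.77 and 8.91 against 8.91, 9.13 and 8.84. Its groups overlapped, with a change of -0.14 (standard error 0.11).
Kmt2b, which methylates promoters of developmental genes, measured 9.09, 9.16 and 9.36 in ATZ-treated and 9.21, 9.42 and 9.22 in control samples. Setd1a, which with Setd1b makes much of the trimethylated H3K4 at promoters, measured 9.33, 9.29 and 9.31 against 9.39, 9.53 and 9.32. The values of both genes overlapped between groups, with changes of -0.08 (standard error 0.11) and -0.10 (standard error 0.09). Setd1b measured 9.29, 9.46 and 9.52 in ATZ-treated and 9.49, 9.41 and 9.53 in control samples, a change of -0.05 (standard error 0.10). It was the only COMPASS enzyme whose highest array was not control replicate 2. Without control replicate 2 the 6 changes were still below 0, from -0.09 to -0.01, with a median of -0.05. Without ATZ replicate 1 the change of Setd1b was above 0, at 0.0133.

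Prdm9, the methyltransferase of recombination hotspots, measured 7.39, 7.39 and 7.40 in ATZ-treated and 7.27, 7.58 and 7.47 in control samples. These values were near the low end of the set, whose means ran from 6.97 to 11.42. The ATZ arrays lay inside the range of the controls, and the log2 change was -0.05 (standard error 0.10, 95% interval -0.30 to 0.20). Without control replicate 2 it was 0.02.
Other SET-domain proteins showed no common direction. Smyd1, a muscle protein that binds and methylates histones, had the highest change of the set. It measured 7.25, 7.49 and 7.35 in ATZ-treated and 7.03, 7.19 and 7.32 in control samples, a change of 0.18 (standard error 0.11), and control replicate 3 was above the lowest ATZ array. Of 5 measured genes of skeletal and heart muscle, 4 were above 0, with a median of 0.05. Myh1 had the largest change of the 5 in size, -0.21. Array means of the list were 6.56 to 6.70, about the median of all probe sets. The part of these genes in the value of Smyd1 was not tested. Smyd2 and Smyd3, relatives that also methylate proteins other than histones, had changes of -0.05 (standard error 0.13) and -0.07 (standard error 0.15). Setd7, which adds a single methyl group to H3K4 and to other proteins, had 0.06 (standard error 0.14), and Kmt2e, a divergent relative of the COMPASS enzymes, had -0.09 (standard error 0.08).

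**Figure D2:**
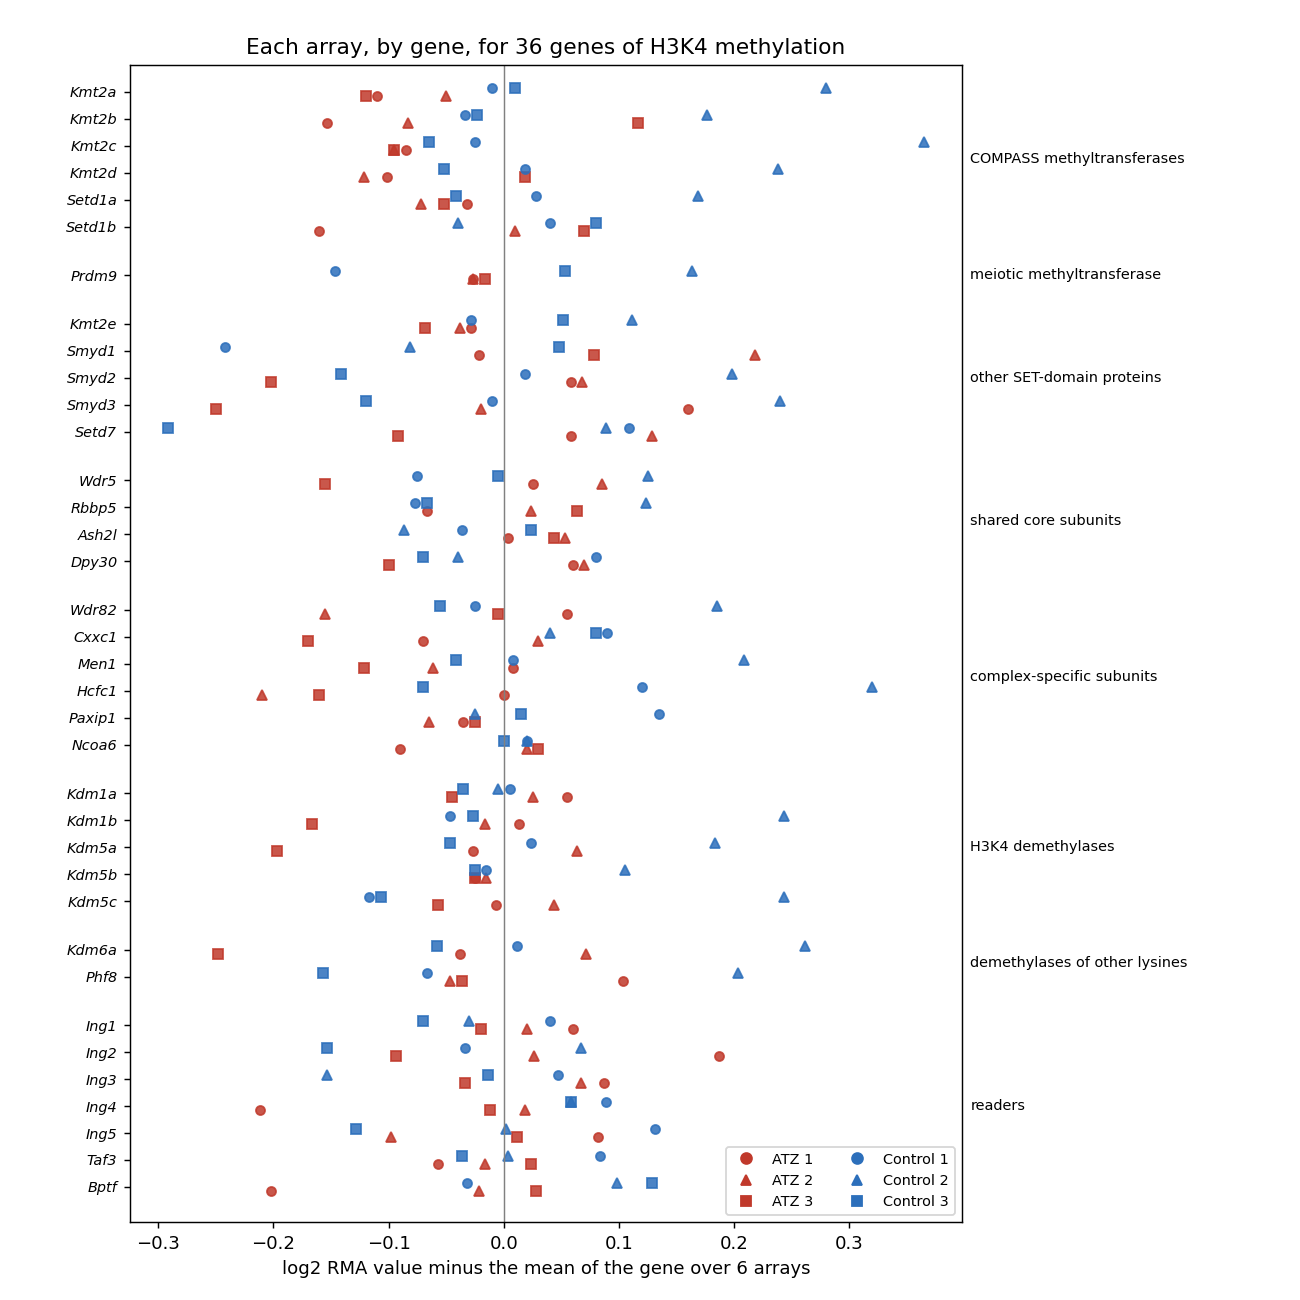
Each point is 1 array: its log2 RMA value minus the mean of that gene over the 6 arrays, for 36 genes grouped by role, with ATZ in red and control in blue and the replicate number as the shape. Control replicate 2 (blue triangle) is the highest array in 20 of the 36 genes, by up to 0.39 in Kmt2c, and in 0 of the 7 readers of the set.

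The 4 shared core subunits of the COMPASS complexes had log2 changes from -0.03 to 0.07, and none passed the test. Wdr5, the hub that holds the catalytic subunit, measured 9.26, 9.32 and 9.08 in ATZ-treated and 9.16, 9.36 and 9.23 in control samples. Rbbp5, which helps to activate the enzyme, measured 8.47, 8.56 and 8.60 against 8.46, 8.66 and 8.47. In both genes the groups overlapped almost fully, with changes of -0.03 (standard error 0.10) and 0.01 (standard error 0.10). Ash2l, the partner of Rbbp5 in that step, measured 11.32, 11.37 and 11.36 in ATZ-treated and 11.28, 11.23 and 11.34 in control samples. Dpy30, a small subunit that docks on Ash2l, measured 9.99, 10.00 and 9.83 against 10.01, 9.89 and 9.86. Control replicate 3 lay above ATZ replicate 1 for Ash2l, so its groups overlapped, as did those of Dpy30. Ash2l had a change of 0.07 (standard error 0.08) and Dpy30 of 0.02 (standard error 0.09). With arrays centred on their medians, the changes of Rbbp5 and Dpy30 turned to -0.02 and -0.01.
The 6 subunits that belong to some of the complexes all had log2 changes below 0, with a median of -0.10, and none passed the test. Hcfc1, a host cell factor that the Setd1 and Kmt2a complexes share with other regulators, had the lowest change of the set. It measured 9.98, 9.77 and 9.82 in ATZ-treated and 10.10, 10.30 and 9.91 in control samples, a change of -0.25 (standard error 0.13, 95% interval -0.55 to 0.06). ATZ replicate 1 was above control replicate 3, so the groups overlapped. Without control replicate 3 they were apart and the change was -0.34, with an adjusted p = 0.834 from limma, and without control replicate 2 it was -0.15. Cxxc1, which brings Setd1 to unmethylated CpG, measured 9.94, 10.04 and 9.84 in ATZ-treated and 10.10, 10.05 and 10.09 in control samples. The groups of Cxxc1 were separated by 0.01, the last decimal of the table, with a change of -0.14 (standard error 0.09). Men1, which tethers Kmt2a and Kmt2b to chromatin, had -0.12 (standard error 0.10), which was -0.04 without control replicate 2. Wdr82, which links Setd1 to RNA polymerase II, had -0.07 (standard error 0.11), which was 0.005 without that array. Paxip1 and Ncoa6, partners of Kmt2c and Kmt2d, had -0.08 (standard error 0.08) and -0.03 (standard error 0.08). A dimmer probe set of Paxip1, the only further probe set in the set of genes, had -0.26 (standard error 0.17).

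Of the 5 measured H3K4 demethylases, 4 had log2 changes below 0 and 1 above, with a median of -0.04, and none passed the test. Kdm5b, which removes methyl groups from trimethylated H3K4 and is abundant in testis, measured 11.39, 11.40 and 11.39 in ATZ-treated and 11.40, 11.52 and 11.39 in control samples. All but control replicate 2 were within 0.01 of each other, and the change was -0.04 (standard error 0.08, 95% interval -0.24 to 0.15), or -0.0017 without that array. Kdm5a, its paralogue, measured 8.80, 8.89 and 8.63 against 8.85, 9.01 and 8.78, a change of -0.11 (standard error 0.11) that was -0.04 without control replicate 2. Kdm5c, the paralogue on chromosome X, measured 8.97, 9.02 and 8.92 in ATZ-treated and 8.86, 9.22 and 8.87 in control samples. The controls of Kdm5c lay on both sides of the ATZ arrays. Its change of -0.01 (standard error 0.12) became 0.11 without control replicate 2 and 0.02 after quantile normalization again.
Kdm1a (LSD1), which acts on mono- and dimethylated H3K4, measured 11.16, 11.13 and 11.06 in ATZ-treated and 11.11, 11.10 and 11.07 in control samples. Its 6 arrays spanned 11.06 to 11.16, and the change of 0.02 had the smallest standard error of the set, 0.08. Kdm1b, its relative, which acts in oocytes in the setting of imprints, measured 7.60, 7.57 and 7.42 against 7.54, 7.83 and 7.56. The groups overlapped, with a change of -0.11 (standard error 0.11) that was -0.02 without control replicate 2. Kdm6a, which demethylates lysine 27 and belongs to the Kmt2c and Kmt2d complexes, measured 8.75, 8.86 and 8.54 in ATZ-treated and 8.80, 9.05 and 8.73 in control samples. Its change was -0.14 (standard error 0.13), and it was -0.05 without control replicate 2. Phf8, which binds trimethylated H3K4 and demethylates lysine 9, had 0.01 (standard error 0.12).
Hcfc1, Kdm5c, Kdm6a and Phf8 lie on chromosome X, which is silenced in spermatocytes. Their changes ran from -0.25 to 0.01, and Hcfc1, the lowest of all 36, is among them, while the 32 genes on other chromosomes ran from -0.19 to 0.18. Kdm5c and Phf8 were near 0, at -0.01 and 0.01. The part of the X chromosome in these values was not tested.

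Among the 7 readers of the mark 4 log2 changes were below 0 and 3 above, with a median of -0.0033, and none passed the test. Ing4, a subunit of HBO1 acetyltransferase complexes, measured 8.25, 8.48 and 8.45 in ATZ-treated and 8.55, 8.52 and 8.52 in control samples. The controls were within 0.03 of each other and all above the ATZ arrays, by at least 0.04, and the change was -0.14 (standard error 0.09). ATZ replicate 1 was 0.20 below the next array, and without it the change was -0.07, while without control replicate 2 it was -0.14. Ing3, a subunit of the NuA4 acetyltransferase complex, measured 9.74, 9.72 and 9.62 in ATZ-treated and 9.70, 9.50 and 9.64 in control samples. Ing2, which like Ing1 belongs to Sin3 deacetylase complexes and is known to be needed for spermatogenesis in mice, measured 7.88, 7.72 and 7.60 against 7.66, 7.76 and 7.54. Groups of both genes overlapped, and both had a change of 0.08 (standard errors 0.09 for Ing3 and 0.11 for Ing2). Ing1 had 0.04 (standard error 0.08) and Ing5 -0.0033 (standard error 0.10). Taf3, the TFIID subunit that binds trimethylated H3K4 at promoters, had -0.03 (standard error 0.08), and Bptf, the reader of the NURF remodelling complex, -0.13 (standard error 0.10).

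Control replicate 2 stood apart from the other arrays for many of these genes. It was the highest of the 6 arrays in 20 of 36 genes, or 55.6%, against 25.3% of all genes and 37.7% of genes in the same range of means. Its median deviation from the mean of a gene over the arrays was 0.12 for the set, 0.21 for the COMPASS enzymes and 0.18 for the H3K4 demethylases. It was 0.0033 for the readers and 0.05 for genes in the same range of means. The other control arrays had medians of 0.01 and -0.04 for the set, and the ATZ arrays -0.02, -0.0025 and -0.04. Without control replicate 2, 20 changes were below 0 and 16 above, with a median of -0.01. The shared core subunits were then above 0 in 4 of 4 genes, from 0.005 to 0.08, and the complex-specific subunits below 0 in 5 of 6, with a median of -0.08.

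**Figure D3:**
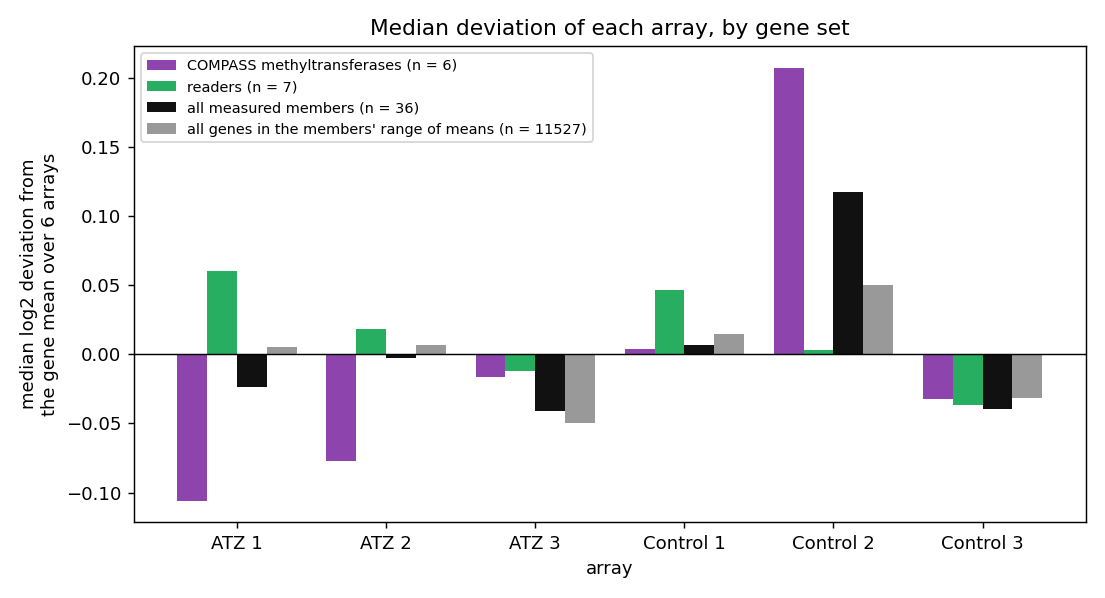
Bars give, for each array, the median over genes of the log2 value minus the mean of the gene over 6 arrays. Control replicate 2 is at 0.21 for the 6 COMPASS methyltransferases, 0.12 for all 36 measured genes, 0.05 for 11527 genes in the same range of means and 0.0033 for the 7 readers.

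**Figure D4:**
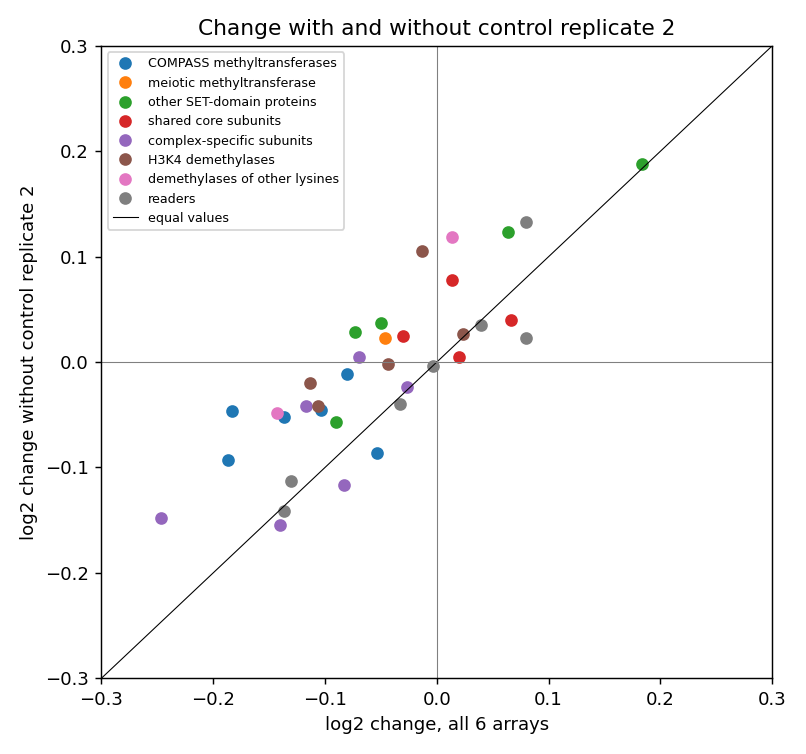
Each point is 1 of the 36 genes: its log2 change (ATZ minus control) with all 6 arrays on the horizontal axis and without control replicate 2 on the vertical axis, coloured by role, with a line of equal values. The median moves from -0.05 to -0.01, and the COMPASS methyltransferases stay below 0.

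Markers of somatic cells of the testis and of early germ cells were also high on control replicate 2. It was the highest array for 33 of 66 measured markers, or 50%, against 25.3% of all genes. Its median deviation was 0.24 for 10 Sertoli cell genes, 0.29 for 6 Leydig cell genes, 0.27 for 5 peritubular and smooth muscle genes, 0.28 for 6 leukocyte genes and 0.22 for 8 genes of spermatogonia. It was 0.09 for 9 genes of spermatocytes, -0.07 for 7 of round spermatids and -0.04 for 6 of elongating spermatids. For both lists of spermatids control replicate 2 was the lowest of the 6 arrays. It was also the lowest for both lists of tissues outside the testis, at -0.17 for 4 genes of epididymal epithelium and -0.07 for 5 of skeletal and heart muscle. These last lists were dim, with array means of 5.69 to 6.03 and 6.56 to 6.70, below or about the median of all probe sets. The mean log2 value of the Sertoli list was 9.38 to 9.52 on the ATZ arrays and 9.36 to 9.71 on the control arrays, and that of the Leydig list 10.90 to 11.08 and 10.92 to 11.41. Their part in the values of the H3K4 genes was not tested.

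Other genes of the pathway, 46 by name, had 45 measured. By limma no gene of this list reached a p under 0.05, adjusted or unadjusted. The median log2 change was -0.05, and 34 changes, or 75.6%, were below 0. This share was 50.8% for all genes and 62.2% for genes in the range of means of the set. Control replicate 2 was the highest array in 21 of the 45, or 46.7%, against 25.3% of all genes and 37.7% in that range. The changes of this list without that array are not given, so its part in these counts was not tested. The smallest unadjusted p belonged to Rcor2, a CoREST partner of Kdm1a, which measured 7.37, 7.18 and 7.14 in ATZ-treated and 7.48, 7.67 and 7.34 in control samples. ATZ replicate 1 was above control replicate 3, and the change was -0.27 (standard error 0.12). Bod1l, a partner of Setd1a, had -0.20 (standard error 0.11), and Leo1, a subunit of the PAF1 elongation complex that acts ahead of H3K4 methylation, -0.18 (standard error 0.10). Of 9 genes of histone H2B ubiquitination and the PAF1 complex, 7 were below 0, with a median of -0.05. Of 9 genes that act with Prdm9 at hotspots, the median was -0.04. In this group 8 were below 0 and none above. The 5 further demethylases, Kdm5d, Kdm2a, Kdm7a, Phf2 and Uty, were all highest on control replicate 2 and all below 0, from -0.24 to -0.12. Of 10 further readers, 6 were highest on control replicate 2, against 0 of the 7 readers of the set.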

How the data were processed

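Each of the 6 arrays was a whole-testis RNA sample. Per the labels, the authors made log2 values by RMA in the Affymetrix Expression Console (versions and annotation build not given in the sources used here), which corrects background, normalizes between arrays and summarizes probes; the deposited table has 41345 probe sets at 2 decimals. The number of arrays limits the precision. The comparison of ATZ and control used lmFit and eBayes of limma 3.58.1 (R 4.3.3), with no filter and no covariate, and Benjamini-Hochberg adjustment over all probe sets. For each gene the brightest probe set with 1 symbol was used. The test was checked on simulated data, with noise drawn apart for each probe set and array. Shifts of a whole array, shared by many genes, were not part of that check.
Genes printed with the value of every array were Prdm9, the COMPASS enzymes and core, the lysine demethylases except Phf8, genes whose groups did not overlap or with an unadjusted p under 0.05, and the 4 highest and 4 lowest changes. Members, lists and tests were chosen with earlier results of these data known. Sequences are from RefSeq, read with Python 3.11.15 and pandas 2.3.3. Alternatives were a replicate block, array weights, other variance settings, each probe set tested on its own, further normalization or centring, a filter on dim probe sets, the mean of all probe sets of a gene, and each array left out; the count of intervals within 1.5-fold and the intervals for all genes at once were added after seeing the data.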

Additional observations from a re-analysis of the deposited data

How the results depend on the processing

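Under 14 alternatives 0 of the 36 genes had an adjusted p under 0.05 by limma or by a test that shared no variance between probe sets, and the lowest adjusted p was 0.834. The median log2 change was -0.05 with a replicate block, under which 0 genes had an unadjusted p under 0.05 and 4 had groups that did not overlap; same-numbered samples had deviations that correlated at 0.02, 0.11 and 0.26, so the numbers were not taken as pairs. Genes at an unadjusted p under 0.05 numbered 0 to 1 without single arrays, the 1 being Hcfc1 without control replicate 3. Genes whose groups did not overlap numbered 4, or 11.1%, against 6.91% of all genes in either direction, but 1 after quantile normalization again (2.78% against 7.59%), 7 with centred arrays (19.4% against 7.32%) and 4 to 10 without single arrays. With 2 arrays against 3, groups lie apart more often, in 13.2% to 22.5% of all genes, beside 11.1% to 27.8% of the 36. Genes above 0 numbered 10, but 6 with centred arrays and 6 to 16 without single arrays. All 36 intervals lay within 1.5-fold in the comparison as given; Hcfc1 left that range with centred arrays, with no shared variance, and when replicate 1 or 3 of either group was left out, and Kmt2c when replicate 1 of either group or replicate 3 of the controls was. The sign changed in 14 genes under some alternative, all with changes under 0.1 in size. With array weights Wdr5 was 0.0097 and Kdm5c 0.0258, after quantile normalization again Kdm5c was 0.0211 and Ing5 0.0222, and with centred arrays Rbbp5 was -0.0167, Dpy30 -0.01, Kdm1a -0.0067 and Phf8 -0.0167. Without single arrays the ranges were -0.1017 to 0.0133 for Setd1b, -0.1317 to 0.0233 for Prdm9, -0.1333 to 0.0383 for Smyd2, -0.1717 to 0.0333 for Smyd3, -0.0667 to 0.1333 for Setd7, -0.08 to 0.04 for Wdr5, -0.0217 to 0.0783 for Rbbp5, -0.01 to 0.075 for Dpy30, -0.115 to 0.005 for Wdr82, -0.0483 to 0.0117 for Ncoa6, -0.075 to 0.105 for Kdm5c, -0.0617 to 0.1183 for Phf8 and -0.0683 to 0.0617 for Ing5. The causes were not tested.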
